A study of Mus musculus with 8 samples.

Results

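Midkine (Mdk), pleiotrophin (Ptn) and 6 further genes of stromal niche signals (Gpc3, Cxcl12, Igfbp5, Igfbp2, Hgf and Pdgfra) were followed in S0 cells of the mouse fetal liver at E12.5. These 8 genes were chosen by name, with the difference between WT and DKO in these same libraries already known, so their values in the 2 genotypes are a description and carry no test. All 8 were among the 52636 gene identifiers counted and all 8 were among the 17378 genes with enough counts to be tested. S0 cells are the liver cells left after FACS when cells bearing lineage antigens of lymphoid and myeloid blood cells, CD71 or Ter119 are set aside, and they are taken as erythroid precursors. RNAseq was made from 4 WT and 4 DKO S0 libraries, all of C57BL/6J background at E12.5 and with no treatment. DKO embryos carried Vps13a-/- (a constitutive allele left by Flp and then β-actin-Cre, lacking exon 6) together with Vps13c-/-, and both genes encode proteins that move lipids between membranes. DKO embryos came from intercrosses of Vps13a+/-/Vps13c-/- mice, which cannot give a WT embryo, so that litter and genotype cannot be told apart, and no Vps13c-/- control library is among the 8. The antibodies of the sort do not label hepatoblasts, stellate cells, mesothelium or endothelium, so these cells could remain in the S0 gate.

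Midkine and pleiotrophin are small secreted heparin-binding growth factors of one family that act on receptor tyrosine phosphatases, ALK, syndecans and integrins, and both are made by mesenchyme during organ growth. Around them in the fetal liver act other stromal signals: CXCL12, the chemokine that retains CXCR4-bearing progenitors, hepatocyte growth factor (Hgf), the ligand of MET, and the binding proteins IGFBP2 and IGFBP5, which hold insulin-like growth factors. Glypican 3 (Gpc3) is a heparan sulfate proteoglycan of hepatoblasts, and PDGFRA is the receptor tyrosine kinase by which many mesenchymal cells are recognized.

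The 8 genes were spread over 5 chromosomes in GRCm38, the build of the files (mm10). Igfbp2 (ENSMUSG00000039323.18, chromosome 1, 72824503 to 72852474, plus strand) and Igfbp5 (ENSMUSG00000026185.8, chromosome 1, 72857932 to 72874884, minus strand) were convergent neighbours with 5457 bp and no annotated gene between them. Hgf (ENSMUSG00000028864.7, 16553495 to 16620152) and Pdgfra (ENSMUSG00000029231.15, 75152292 to 75198215) lay on the plus strand of chromosome 5. Ptn (ENSMUSG00000029838.11, 36714929 to 36810220, minus strand) and Cxcl12 (ENSMUSG00000061353.11, 117168535 to 117181367, plus strand) were on chromosome 6. Mdk (ENSMUSG00000027239.14) was on the minus strand of chromosome 2 from 91929805 to 91932297, and Gpc3 (ENSMUSG00000055653.13) on the minus strand of chromosome X from 52272426 to 52613950.

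Because 5 of these genes were much higher in DKO and 3 were not, promoters of both kinds are shown, as RefSeq gives them for GRCm38.p6, on the strand of the gene and ending just before its annotated start. Capitals mark the GC box (GGGCGG, or CCGCCC on the other strand) and the CCAAT box (CCAAT, or ATTGG on the other strand). Ptn is chr6:36810221-36810429 (minus), Igfbp5 chr1:72874885-72875115 (minus), Igfbp2 chr1:72824230-72824479 (plus) and Pdgfra chr5:75152001-75152250 (plus), all from genes higher in DKO. Gpc3, chrX:52613975-52614224 (minus), and Cxcl12, chr6:117168285-117168534 (plus), are from genes whose groups overlapped.
Ptn: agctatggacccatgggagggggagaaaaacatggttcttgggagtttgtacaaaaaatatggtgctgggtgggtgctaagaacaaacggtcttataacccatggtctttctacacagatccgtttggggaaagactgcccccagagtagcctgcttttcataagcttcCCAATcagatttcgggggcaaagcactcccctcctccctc
Igfbp5: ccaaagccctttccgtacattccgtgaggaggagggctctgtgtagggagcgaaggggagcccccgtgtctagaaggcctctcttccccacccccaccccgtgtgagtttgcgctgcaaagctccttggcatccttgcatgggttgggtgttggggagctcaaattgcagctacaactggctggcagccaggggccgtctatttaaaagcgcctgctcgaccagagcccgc
Igfbp2: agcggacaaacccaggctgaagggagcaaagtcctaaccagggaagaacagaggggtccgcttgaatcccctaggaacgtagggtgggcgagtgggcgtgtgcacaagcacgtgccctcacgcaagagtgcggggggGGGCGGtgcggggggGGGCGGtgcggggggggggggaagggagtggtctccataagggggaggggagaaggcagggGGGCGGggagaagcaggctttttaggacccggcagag
Pdgfra: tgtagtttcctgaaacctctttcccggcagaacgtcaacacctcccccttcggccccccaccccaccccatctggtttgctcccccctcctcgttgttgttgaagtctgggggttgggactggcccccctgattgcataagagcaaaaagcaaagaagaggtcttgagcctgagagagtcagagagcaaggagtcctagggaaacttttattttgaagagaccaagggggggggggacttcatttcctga
Gpc3: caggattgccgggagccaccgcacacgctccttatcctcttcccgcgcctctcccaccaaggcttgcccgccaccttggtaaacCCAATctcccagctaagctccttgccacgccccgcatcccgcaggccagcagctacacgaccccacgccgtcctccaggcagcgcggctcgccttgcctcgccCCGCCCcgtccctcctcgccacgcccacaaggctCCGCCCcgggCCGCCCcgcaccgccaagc
Cxcl12: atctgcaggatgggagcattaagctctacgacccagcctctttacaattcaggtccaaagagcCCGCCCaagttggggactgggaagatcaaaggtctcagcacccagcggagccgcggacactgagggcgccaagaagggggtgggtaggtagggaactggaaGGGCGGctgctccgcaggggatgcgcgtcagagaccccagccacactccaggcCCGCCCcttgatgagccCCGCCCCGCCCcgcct

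Motif counts and GC content are for the full 250 bases before the RefSeq start. The printed sequences of Ptn and Igfbp5 are 209 and 231 of these, since bases inside the annotated gene were left out. In these windows of 250 bases Igfbp2 held 3 GC boxes, Cxcl12 held 5, of which 2 overlap, and Gpc3 held 3 GC boxes and 1 CCAAT box. The Ptn window held 1 CCAAT box, and those of Igfbp5 and Pdgfra held neither motif. The TATA box (TATAAA on either strand) was in no window of these 6 genes or of Hgf. Of all 32851 RefSeq promoters, 32.7% held a GC box, 33.8% a CCAAT box and 12.4% a TATA box in the 250 bases before the start. The GC content was 71.6% for Gpc3, 67.2% for Igfbp2, 64.4% for Cxcl12, 58.8% for Igfbp5, 54.4% for Pdgfra, 52% for Ptn and 50.8% for Hgf, against a median of 52.4%. Igfbp2 had another RefSeq promoter, not shown, with 0 GC boxes and a GC content of 56.4%. Another promoter of Hgf, also not shown, had a GC content of 51.2%, and the promoter set held none for Mdk. Promoters with 3 GC boxes thus occurred both in a gene higher in DKO, Igfbp2, and in one whose groups overlapped, Gpc3.

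Library totals ran from 36981439 to 50886469 counts. Each library is treated as 1 embryo, which the methods do not state, so a p-value given here measures the spread between libraries, which may in part be technical. Vps13a itself had 1943 ± 129.5 normalized counts in the WT group and 794 ± 194 in the DKO group (SD over 4 libraries each; log2 fold change -1.29, edgeR adjusted p = 0.00247). Vps13c was not lower in DKO, at 583 ± 74.9 and 816 ± 279 normalized counts (SD over 4 libraries each; log2 fold change 0.49, edgeR adjusted p = 0.182), with overlapping groups. Counts over a whole gene also take in what lies outside a deletion, so the Vps13c allele is not checked by them. Xist was at 62.3 normalized counts or lower in the 4 WT libraries and DKO replicate 3, and between 18029 and 27043 in the other 3 DKO libraries, while Ddx3y showed the inverse. Sex therefore differed between the groups, and DKO replicate 3 is the 1 DKO library with the pattern of the WT libraries. For the 8 genes the difference is given also for DKO replicate 3 alone against the 4 WT libraries, and for the partner genes their counts of calls. The other differences are given for all libraries together, and the part of sex in them was not tested.

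Of the 8 genes, Mdk, Ptn, Igfbp2, Igfbp5 and Pdgfra were several-fold higher in DKO, while Gpc3, Cxcl12 and Hgf overlapped between the genotypes. Those 5 passed the edgeR threshold of an adjusted p under 0.05 with a log2 fold change above 1, which 6.19% of all tested genes did, and in all 5 the lowest DKO library exceeded the highest WT library, as in 13.5% of all tested genes. Since the genes were selected on this contrast, nothing is read from these counts. The median log2 fold change was 2.84 over the 8 genes and 0.03 over all tested genes. In bulk RNA, more cells of a type and more RNA per cell cannot be told apart.

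**Figure D1:**
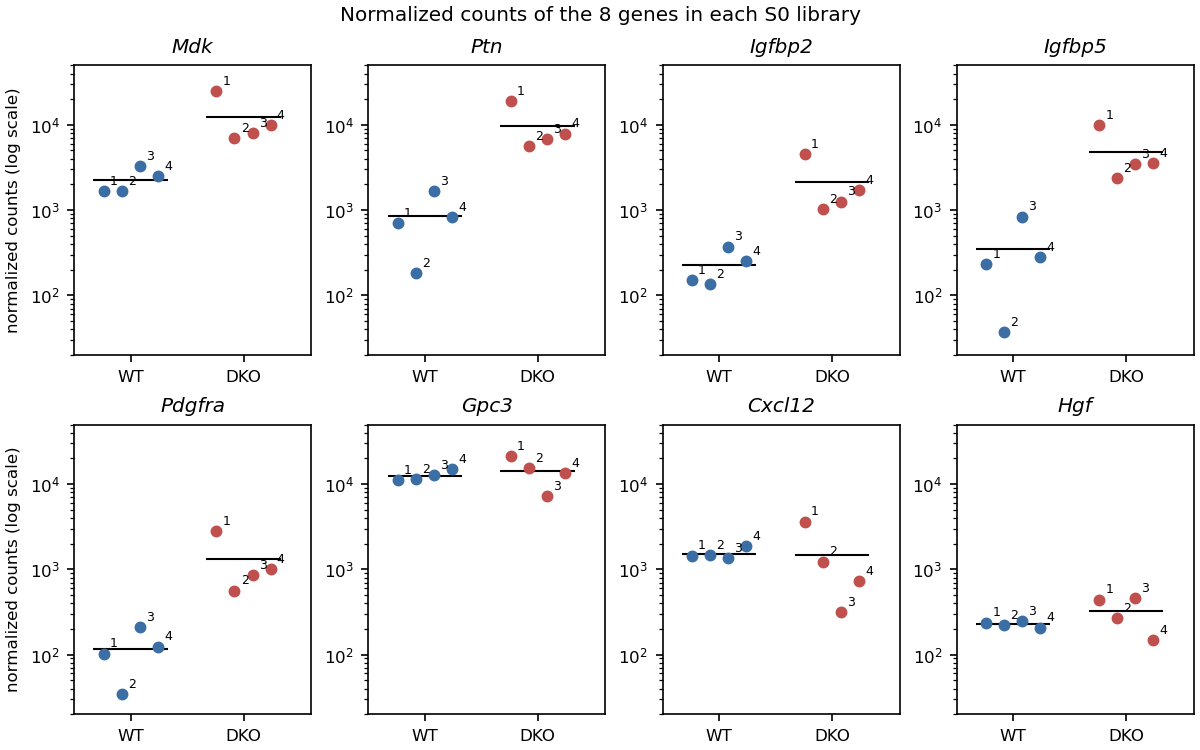
Normalized counts (counts over the TMM-scaled size of their library, times the mean of these sizes; log axis) of the 8 genes in each library, with the replicate number beside each point and a bar at the mean of the 4 libraries. Mdk, Ptn, Igfbp2, Igfbp5 and Pdgfra separate the genotypes, DKO replicate 1 is the highest library in 7 of the 8 panels, and Gpc3, Cxcl12 and Hgf overlap.

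Midkine was the most abundant of the genes that differed. Mdk had 1664, 1666, 3279 and 2493 normalized counts in WT replicates 1 to 4 and 24894, 6919.7, 8011 and 10002.5 in DKO replicates 1 to 4. The lowest DKO library stood 2.11 times above the highest WT library, and DKO replicate 1 was 3.0 times the mean of the other 3 DKO libraries. The means were 2276 ± 774 in WT and 12457 ± 8389 in DKO (SD over 4 libraries each), a log2 fold change of 2.45 with a standard error of 0.42. Without DKO replicate 1 the log2 fold change was 1.87, and for DKO replicate 3 alone it was 1.80.

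Pleiotrophin, the other member of the family, was lower than midkine in WT and spread more widely there. Ptn had 703, 181, 1659 and 823 normalized counts in the WT libraries and 18804, 5600.4, 6811 and 7913 in the DKO libraries. WT replicate 3 was the highest WT library for both growth factors and DKO replicate 1 the highest DKO library, and the lowest DKO value of Ptn was 3.38 times the highest WT value. Ptn averaged 841 ± 612 in WT and 9782 ± 6088 in DKO (SD over 4 libraries each), which is a log2 ratio of 3.54 (standard error 0.63), which was 3.01 without DKO replicate 1 and 3.0 for DKO replicate 3 alone.

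The balance of the 2 growth factors was narrower in DKO than in WT. Per transcript length, in TPM, the ratio of Ptn to Mdk was 0.163, 0.0418, 0.195 and 0.127 in the WT libraries and 0.291, 0.312, 0.328 and 0.305 in the DKO libraries. All 4 DKO ratios lay above all 4 WT ratios, and their range was small although DKO replicate 1 held far more of both transcripts. Midkine remained the higher of the 2 in every library.

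Both binding proteins of insulin-like growth factors were higher in DKO. Igfbp2 had 152, 134, 372 and 254 normalized counts in the WT libraries and 4572, 1033, 1253 and 1724 in the DKO libraries. The groups were separated by a factor of 2.78 between the nearest libraries. Igfbp2 averaged 228 ± 109 in WT and 2145 ± 1643 in DKO (SD over 4 libraries each), a log2 fold change of 3.23 with a standard error of 0.53, and 2.55 without DKO replicate 1.

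Igfbp5, its convergent neighbour, varied most of the 8 genes among WT libraries. It had 230.4, 37, 839 and 279.8 normalized counts in the WT libraries and 10005, 2364, 3492 and 3558 in the DKO libraries. The WT libraries spanned a factor of 22.7 and the DKO libraries one of 4.23, and the lowest DKO library was 2.82 times the highest WT library. Igfbp5 averaged 347 ± 345 in WT and 4855 ± 3477 in DKO (SD over 4 libraries each), a log2 fold change of 3.81 with a standard error of 0.81. That difference was 3.18 without DKO replicate 1 and 4.73 without WT replicate 3. For DKO replicate 3 alone the log2 fold change was 3.31 for Igfbp5 and 2.44 for Igfbp2. The TPM ratio of Igfbp5 to Igfbp2 ran from 0.0848 to 0.694 in WT and from 0.635 to 0.857 in DKO, so that the groups overlapped.

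Pdgfra, the receptor among the 8 genes, was the lowest of them in WT. It had 103, 34.4, 209 and 124 normalized counts in the WT libraries and 2821, 564, 859.5 and 998 in the DKO libraries. WT replicate 2, lowest for Ptn, Igfbp2 and Igfbp5, was again the lowest, and the nearest libraries of the 2 groups differed by a factor of 2.69. Pdgfra averaged 118 ± 72.1 in WT and 1311 ± 1023 in DKO (SD over 4 libraries each). Its log2 ratio of DKO to WT was 3.48 with a standard error of 0.63, and it was 2.78 without DKO replicate 1 and 2.85 for DKO replicate 3 alone. Kit, a receptor of the same family that follows on the same strand after 376.7 kb with 5 annotated genes between, changed the other way, from 8763 ± 1019 to 4066 ± 747 normalized counts (SD over 4 libraries each; log2 fold change -1.11, edgeR adjusted p = 0.00239).

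Glypican 3 was the most abundant of the 8 genes in WT and differed little on average. Gpc3 had 11031, 11362, 12856 and 15068.5 normalized counts in the WT libraries and 21439.9, 15507, 7222 and 13339 in the DKO libraries. DKO replicates 1 and 2 were above all WT libraries, DKO replicate 3 was below all of them and DKO replicate 4 lay among them. The means were 12579.5 ± 1839 and 14377 ± 5872 (SD over 4 libraries each), giving a log2 ratio of 0.19 with a standard error of 0.27. It was -0.06 without DKO replicate 1 and -0.82 for DKO replicate 3 alone. Gpc3 is X-linked, and DKO replicate 3 was the DKO library without high Xist. The 4 WT libraries, also without high Xist, had 11031 to 15068.5 normalized counts of Gpc3, against 7222 in DKO replicate 3. The part of sex in the Gpc3 values was not tested.

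Cxcl12, the chemokine of the group, was uniform in WT and most variable in DKO. It had 1444, 1460.5, 1343 and 1873 normalized counts in the WT libraries and 3637, 1232, 313 and 728 in the DKO libraries. DKO replicate 1 was above every WT library and the other 3 DKO libraries were below every WT library. The DKO libraries spanned a factor of 11.6 and the WT libraries one of 1.39. The means were 1530.1 ± 234 and 1477 ± 1488 (SD over 4 libraries each), and the log2 fold change of -0.05 had a standard error of 0.59. Without DKO replicate 1 it was -1.0, and for DKO replicate 3 alone it was -2.31, so that the mean of DKO rests on 1 library.

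Hgf, the growth factor that acts on hepatoblasts through MET, was low throughout. It had 237, 219, 249 and 207 normalized counts in the WT libraries and 440.3, 269, 455 and 146 in the DKO libraries. DKO replicates 1, 2 and 3 lay above all WT libraries and DKO replicate 4 below all of them. Hgf averaged 228 ± 18.6 and 328 ± 148 (SD over 4 libraries each), a log2 fold change of 0.52 with a standard error of 0.34. For DKO replicate 3 alone it was 0.98.

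DKO replicate 1 was the highest DKO library for 7 of the 8 genes, Hgf being the exception. Its excess over the mean of the other 3 DKO libraries was 4.8-fold for Cxcl12, 3.50-fold for Pdgfra, 3.42-fold for Igfbp2 and 3.19-fold for Igfbp5. The 8 genes together made up 1972 CPM (counts relative to the TMM-scaled size of the library) in that library. They made up 647 to 875 CPM in the other 3 DKO libraries and 344 to 481 CPM in the WT libraries. With DKO replicate 1 set aside, the remaining DKO mean was still 8.05 times the WT mean for Ptn, 9.05 times for Igfbp5, 6.86 times for Pdgfra, 5.86 times for Igfbp2 and 3.65 times for Mdk. The same ratio was 0.956 for Gpc3, 0.495 for Cxcl12 and 1.27 for Hgf.

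Levels of different genes were compared per transcript length. In WT the mean TPM fell from 298 for Gpc3 to 109 for Mdk, 15.5 for Ptn, 12.0 for Cxcl12, 7.83 for Igfbp2, 3.63 for Igfbp5, 2.03 for Hgf and 0.743 for Pdgfra. Gpc3 and Mdk, Mdk and Ptn, and Hgf and Pdgfra did not overlap between neighbours in that order, while the 4 other neighbouring pairs did. In DKO the order of mean TPM was Mdk (566), Gpc3 (318), Ptn (171), Igfbp2 (70.1), Igfbp5 (48.7), Cxcl12 (11), Pdgfra (7.90) and Hgf (2.69), and all neighbouring pairs overlapped over the 4 libraries. Within a library Mdk was above Gpc3 in 3 of the 4 DKO libraries, the exception being replicate 2, and below it in all 4 WT libraries.

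**Figure D2:**
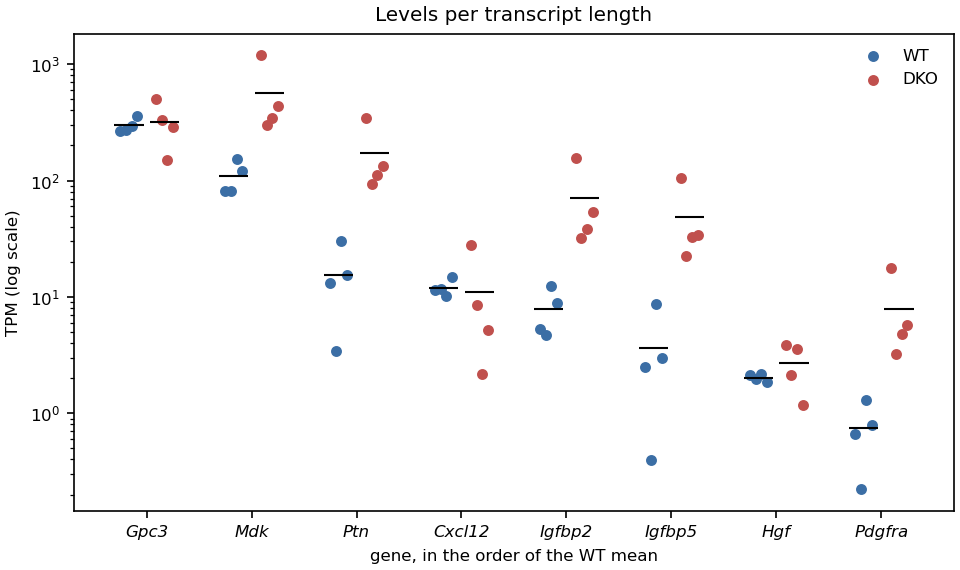
TPM (counts per kilobase of exons, scaled to the same total in each library; log axis) of the 8 genes in the 4 WT and 4 DKO libraries, with a bar at the mean of each group, in the order of the WT mean. Gpc3 leads in WT at a mean of 298 TPM, while Mdk reaches a mean of 566 TPM in DKO and passes Gpc3 in 3 of 4 libraries.

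The 8 genes did not vary as 1 block. Correlations of log2 CPM over the 8 libraries, after the mean of each genotype was taken off, averaged 0.569 over the 28 pairs and ran from -0.14 to 0.995. These are descriptions over 8 points that share their library, depth and the cells in the sort. The 10 pairs among Mdk, Ptn, Igfbp2, Igfbp5 and Pdgfra averaged 0.886 and none was under 0.735, whereas the other 18 pairs averaged 0.393. Within the 5 genes, Ptn and Igfbp5 (0.995) and Mdk and Igfbp2 (0.992) were the closest pairs. Gpc3 and Cxcl12 formed a pair of their own at 0.944, and Hgf reached at most 0.302 with another of the 8 genes.

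The correlation of all pairs depended on 1 library and that of the 5 genes did not. Without DKO replicate 1 the mean over 28 pairs was 0.294, while that over the 10 pairs was 0.885 and that of Gpc3 with Cxcl12 was 0.947. Within WT alone Ptn correlated with Igfbp5 at 0.999 and with Cxcl12 at -0.05 over 4 libraries. Within DKO alone the corresponding values were 0.993 and 0.740.

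**Figure D3:**
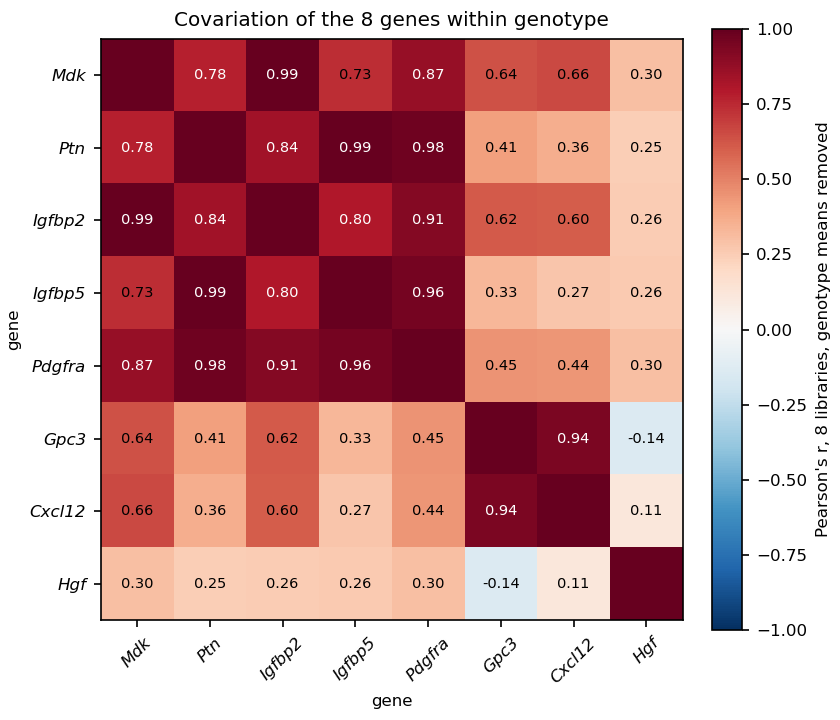
Pearson's r of log2 CPM for each pair of the 8 genes over 8 libraries, with the genotype means removed, on a color scale from -1 to 1. Mdk, Ptn, Igfbp2, Igfbp5 and Pdgfra form a block with r of 0.735 or more, Gpc3 and Cxcl12 pair at 0.944, and Hgf stands alone.

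Markers of the cells that could pass the sort moved beside these genes. Of 18 stellate cell and mesenchyme markers, all tested, 13 were called higher in DKO, against 6.19% of all tested genes, and 5 were not called, with a median log2 fold change of 2.67. Their summed level was 136 to 226 CPM in WT and 423 to 1323 in DKO, the highest value being that of DKO replicate 1. Col3a1, a fibrillar collagen, rose from 723 ± 346 to 5664 ± 4325 normalized counts (SD over 4 libraries each; log2 fold change 2.97, edgeR adjusted p = 0.00759). Des, the intermediate filament of stellate and muscle cells, rose from 59.3 ± 29.3 to 618 ± 478 (SD over 4 libraries each; log2 fold change 3.38, edgeR adjusted p = 0.00582). Of the list, Rgs5 was at 0 in WT replicates 1 and 2, Lhx2 in WT replicate 1 and Hand2 in WT replicate 3. Pdgfrb, which is also in this list, had a log2 DKO to WT ratio of 0.21 (edgeR adjusted p = 0.668).

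The summed stellate and mesenchyme markers followed the 5 genes library by library. After removal of the genotype means, Mdk correlated with them at 0.983, Igfbp2 at 0.972, Pdgfra at 0.863, Ptn at 0.761 and Igfbp5 at 0.703 over the 8 libraries. Mesothelium markers also varied with these genes, at 0.663 for Pdgfra, 0.655 for Igfbp5, 0.626 for Ptn, 0.511 for Igfbp2 and 0.496 for Mdk. With summed hepatoblast markers the 5 values ran from 0.048 for Pdgfra to 0.162 for Igfbp2. Gpc3 correlated with hepatoblast markers at 0.746 and with stellate and mesenchyme markers at 0.721, Cxcl12 at 0.536 and 0.740. Hgf reached 0.714 with mesothelium markers and -0.65 with hepatoblast markers. With endothelium markers all values were negative, from -0.432 for Igfbp5 to -0.731 for Mdk and -0.748 for Hgf. Macrophage markers gave 0.678 for Gpc3, 0.509 for Cxcl12 and -0.596 for Hgf, and from -0.206 for Pdgfra to -0.0935 for Mdk among the 5 genes. Erythroid markers gave values from -0.369 for Igfbp5 to -0.07 for Mdk. The part of these cells in the levels of the 8 genes was not tested.

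**Figure D4:**
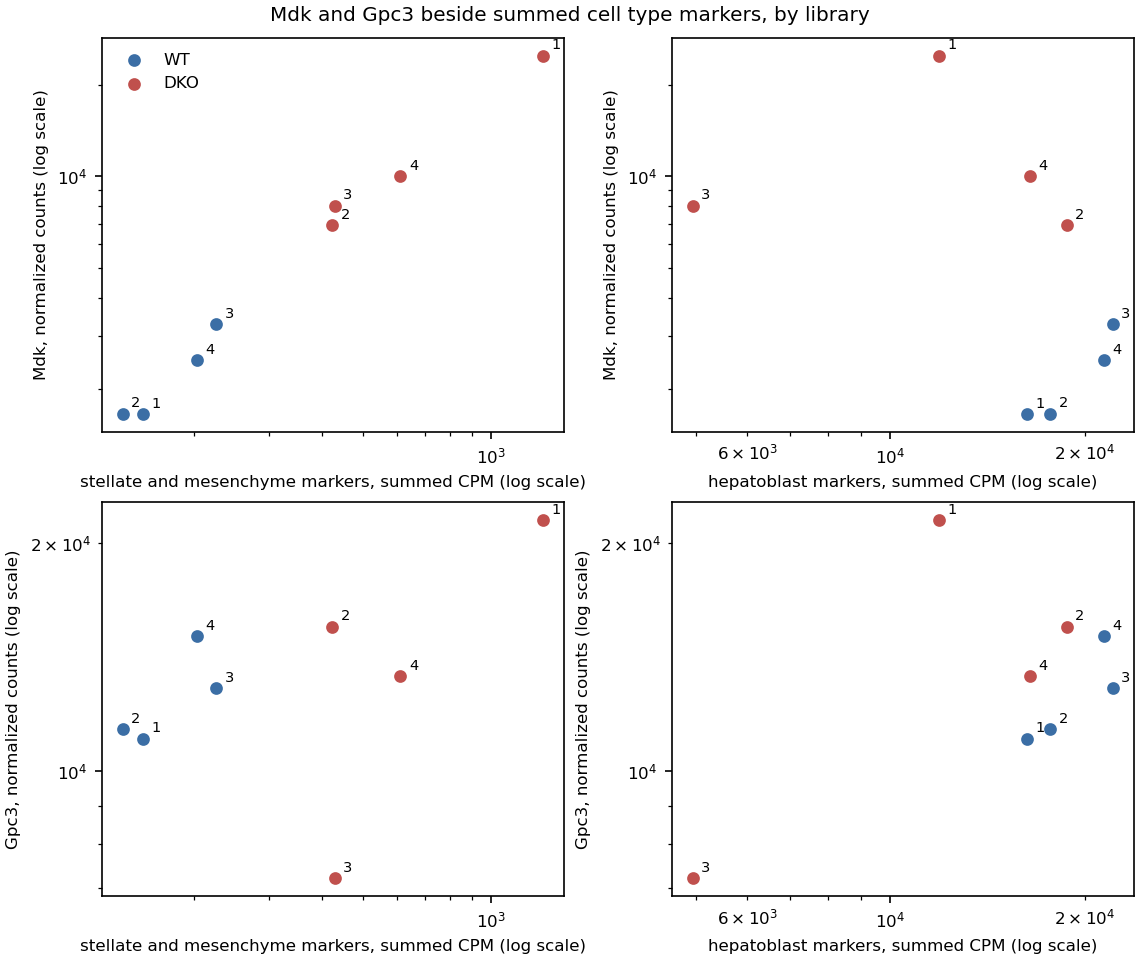
Normalized counts of Mdk (top) and Gpc3 (bottom) against the summed CPM of stellate and mesenchyme markers (left) and hepatoblast markers (right), all on log axes, 1 numbered point a library. Mdk climbs with the stellate and mesenchyme sum, which is 136 to 226 in WT and 423 to 1323 in DKO, while DKO replicate 3 is lowest for both Gpc3 and the hepatoblast sum.

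Other marker lists moved differently. Of 10 mesothelium markers 8 were tested, 6 of these were called higher, against the same 6.19%, and 2 were not. Their sums were 40.2 to 64.9 CPM in WT and 86.5 to 156 in DKO. The largest term was Podxl, which was not called (log2 fold change 0.52). Msln was at 0 in every library but DKO replicate 3 (20.8 normalized counts), and Muc16 in every library but DKO replicate 1 (34.7). Hepatoblast markers summed to 16295 to 22101 CPM in WT and to 4944 in DKO replicate 3 and 11898 to 18743 in the other DKO libraries. Of these 16 markers Cdh1 was called lower and 15 did not pass, with a median log2 fold change of -0.43. Of 14 endothelium markers Pecam1 was called lower, with sums of 387 to 431 in WT and 244 to 410 in DKO. Of 12 macrophage markers 10 were tested and Adgre1 was called lower, with sums of 112 to 169 in WT and 31.6 to 99.9 in DKO. Of the 12, 8 were at 0 in some library, and Cd163 was at 0 in every library. The share of all tested genes called lower was 2.43%. Of the 16 erythroid markers, which define the labelled cell, Epor and Tspan33 were among those with an adjusted p under 0.05 (edgeR), with log2 fold changes of 0.47 and 0.77, and the sums overlapped at 1147 to 2300 in WT and 891 to 2719 in DKO.

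The genes most like the mean of the 8 genes were named by their correlation within genotype over the 8 libraries, among 12331 other genes with a mean of at least 100 normalized counts. The 10 closest were Mfap2 (0.978), Chd3 (0.977), Efs (0.977), Map1b (0.976), Cpxm1 (0.975), Sfrp1 (0.975), Pdgfc (0.971), Qsox1 (0.971), Vash2 (0.971) and Col3a1 (0.967). Of these 10 genes, 8 were called higher in DKO by edgeR, with log2 fold changes from 1.87 for Cpxm1 to 4.05 for Pdgfc. Of all tested genes 6.19% were called higher, but that share is not for the 12331 candidates. The filter took the mean over all 8 libraries, so genes low in WT could pass through DKO alone. Efs, at 21.3 in WT and 257 in DKO, and Pdgfc, at 33.5 and 560, did so. Nothing is read from this count. Vash2, at means of 102 in WT and 404 in DKO with overlapping groups, had a log2 DKO to WT ratio of 1.98 and did not pass (edgeR adjusted p = 0.0715). Qsox1 had a log2 ratio of -0.31 (edgeR adjusted p = 0.118), so that it followed the mean within genotype without being higher in DKO. Mfap2, a microfibril protein of the extracellular matrix, had 138 to 730 normalized counts in WT and 1993.5 to 9500 in DKO.

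The partners of the 8 genes were examined next, as 7 lists of receptors, enzymes and related ligands with 89 genes, of which 86 were tested. Of these, 22 had an adjusted p under 0.05 and were higher in DKO, against 10.7% of all tested genes, and 4 were lower, against 10.8%, while 60 did not pass. With the fold threshold 21 were called higher, or 24.4%, and 1 lower. For DKO replicate 3 alone against WT these counts were 8 and 11. The median log2 fold change over the 86 genes was 0.40. Of the 22 higher genes, 11 kept an adjusted p under 0.05 when any 1 of the 8 libraries was left out, and of the 4 lower genes 3 did. The lists were written with earlier results of these data known.

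**Figure D5:**
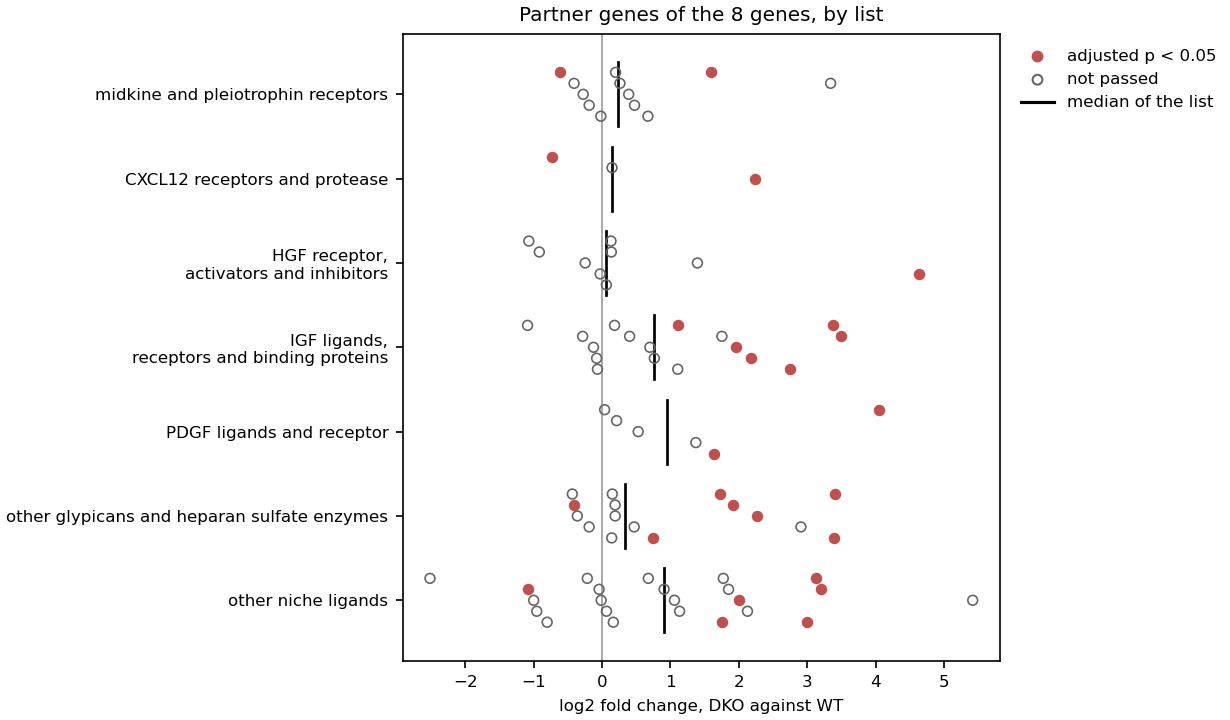
Log2 fold change of DKO against WT for the 86 tested partner genes, 1 row a list, with filled points for an edgeR adjusted p under 0.05, open points for genes that did not pass and a bar at the median of each list. Most receptors of midkine and pleiotrophin lie near 0, while 6 of 17 genes of the IGF list and 6 of 16 glypican and heparan sulfate genes pass on the higher side. Of all tested genes, 10.7% pass on that side.

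Of 13 receptors of midkine and pleiotrophin, 12 were tested, 1 was higher, 1 was lower and 10 did not pass. The share that was higher, 8.33%, was near the 10.7% of all tested genes. Sdc3, a syndecan that binds pleiotrophin, rose from 110.2 ± 45.3 to 334 ± 242 normalized counts (SD over 4 libraries each; log2 fold change 1.6, edgeR adjusted p = 0.0429). This call ended without any one of WT replicates 1, 2 and 4 or DKO replicates 1 and 4, with an adjusted p of up to 0.117. Itga4, the integrin alpha 4 chain of blood progenitors, fell from 8629 ± 536 to 5618 ± 283 normalized counts (SD over 4 libraries each; log2 fold change -0.62, edgeR adjusted p = 0.00201) and passed without any 1 library. Ptprz1, the receptor phosphatase, was at 0 in WT replicates 1, 2 and 3, at 21.9 normalized counts in WT replicate 4, and at 127, 22.1, 48.8 and 30.3 in the DKO libraries (edgeR adjusted p = 0.121). The kinase Alk had at most 9.46 normalized counts in any library and was not tested. Nucleolin (Ncl), a surface and nucleolar partner of midkine, had a log2 DKO to WT ratio of -0.02 (edgeR adjusted p = 0.93).

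Cxcr4, the signalling receptor of CXCL12, had 88.6 ± 22.2 normalized counts in the WT group and 98.1 ± 48.3 in the DKO group (SD over 4 libraries each; log2 fold change 0.15, edgeR adjusted p = 0.835). Ackr3, the scavenging receptor of the same chemokine, rose from 54.8 ± 40.3 to 259 ± 143 (SD over 4 libraries each; log2 fold change 2.24, edgeR adjusted p = 0.0191), and lost the call without WT replicate 1, 2 or 4, at an adjusted p of up to 0.0662. Dpp4, the protease that inactivates CXCL12, fell from 486 ± 93.3 to 293 ± 44.9 (SD over 4 libraries each; log2 fold change -0.73, edgeR adjusted p = 0.0334). Its adjusted p stayed under 0.05 in 3 of the 8 fits that left out 1 library and did not when any one of WT replicates 1, 3 and 4 or DKO replicates 3 and 4 was set aside, at an adjusted p of up to 0.107.

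Of the 10 genes around HGF, 9 were tested, 1 was higher and 8 did not pass. The share that was higher, 11.1%, was near the 10.7% of all tested genes. Met, the receptor, had 656 ± 91.6 normalized counts in the WT group and 553 ± 189 in the DKO group (SD over 4 libraries each; log2 fold change -0.25, edgeR adjusted p = 0.555). Mst1r, the receptor tyrosine kinase closest to MET, which binds the HGF-like protein MST1 and not HGF, had 16.8, 24.1, 37.4 and 13.1 normalized counts in the WT libraries and 375, 275, 607 and 1019 in the DKO libraries. All DKO libraries were far above all WT libraries, and DKO replicate 4, not replicate 1, was the highest. Mst1r rose by a log2 fold change of 4.63 with a standard error of 0.52 (edgeR adjusted p = 0.00138) and passed without any 1 library.

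Of the 17 genes of the IGF system, 6 were higher, or 35.3% against 10.7% of all tested genes, and 11 did not pass. Igf1, the growth factor, had 187, 72.3, 420.5 and 446 normalized counts in the WT libraries and 6251, 1649, 803 and 3056 in the DKO libraries, a log2 DKO to WT ratio of 3.38 (edgeR adjusted p = 0.0118). Igf2, the fetal growth factor, had 16432 ± 6424 in WT and 18656 ± 11614 in DKO (SD over 4 libraries each; log2 fold change 0.18, edgeR adjusted p = 0.795), and the receptor Igf1r had a log2 DKO to WT ratio of -0.12 (edgeR adjusted p = 0.51). Of the other binding proteins, Igfbp1 and Igfbp3 rose by log2 fold changes of 1.96 and 2.74 (edgeR adjusted p = 0.00678 and 0.0134). Igfbp1 was highest in DKO replicate 4 and Igfbp3 in DKO replicate 1, and the call of Igfbp3 ended without WT replicate 1 or 4, at an adjusted p of up to 0.051. Igfbp4, another binding protein, had a log2 DKO to WT ratio of -0.07 (edgeR adjusted p = 0.682). Pappa, a protease that cleaves binding proteins, and Stc2, an inhibitor of that protease, rose by 3.50 and 2.17 (edgeR adjusted p = 0.00502 and 0.00445). The adaptor Irs2 rose by 1.11 (edgeR adjusted p = 0.00598).

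Among 6 genes of the PDGF system, Pdgfc and Pdgfrl were higher, or 33.3% against 10.7% of all tested genes, and 4 did not pass. Pdgfc, a ligand of PDGFRA, had 22, 16.4, 52.1 and 43.7 normalized counts in the WT libraries and 1238, 279, 322 and 401 in the DKO libraries, with no overlap. Its log2 fold change was 4.05 with a standard error of 0.61 (edgeR adjusted p = 0.00366), and it passed without any 1 library. Pdgfrl, a receptor-like protein, rose by 1.64 (edgeR adjusted p = 0.0455) and lost the call when any one of WT replicates 1, 2 and 4 or DKO replicates 2 and 4 was set aside, at an adjusted p of up to 0.129. Pdgfa, another ligand of PDGFRA, had a log2 DKO to WT ratio of 1.37 (edgeR adjusted p = 0.0512).

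Of 17 other glypicans and heparan sulfate enzymes, 16 were tested, 6 were higher, 1 was lower and 9 did not pass, and Gpc5 was at 0 in every library. The share that was higher was 37.5%, against 10.7% of all tested genes. Sulf1 and Sulf2, the extracellular enzymes that remove 6-O sulfate from heparan sulfate, both rose by a log2 DKO to WT ratio of 3.40 (edgeR adjusted p = 0.00734 and 0.00746) and passed without any 1 library. Sulf2 had 130.9, 92.9, 215 and 200.2 normalized counts in the WT libraries and 4289, 735, 748 and 997 in the DKO libraries, DKO replicate 1 standing apart, and DESeq2 gave no adjusted p for it. Hs6st2, which adds 6-O sulfate, rose by 2.26 (edgeR adjusted p = 0.0257), and lost the call without any one of the 4 WT libraries, at an adjusted p of up to 0.0798. The glypicans Gpc1 and Gpc6 rose by 1.91 and 1.73 (edgeR adjusted p = 0.0324 and 0.0333), and both lost the call without WT replicate 1, 2 or 4, at adjusted p of up to 0.0981 and 0.0994. Of the copolymerase that builds the chain, Ext1 rose by 0.75 (edgeR adjusted p = 0.0158; up to 0.0559 without WT replicate 1 or 2) and Ext2 fell by 0.41 (edgeR adjusted p = 0.0166).

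Of 23 other niche ligands, 5 were higher, 1 was lower and 17 did not pass. The share that was higher was 21.7%, against 10.7% of all tested genes. Rspo3, an amplifier of WNT signalling, and Vegfa, the endothelial growth factor, rose by log2 fold changes of 3.13 and 1.76 (edgeR adjusted p = 0.00409 and 0.00395) and passed without any 1 library. Tgfb2 and Tgfb3 rose by 3.20 and 3.0 (edgeR adjusted p = 0.0193 and 0.0267) and Bmp4 by 2.0 (edgeR adjusted p = 0.0196). These 3 calls ended without WT replicate 1 or 4, those of Bmp4 and Tgfb2 also without WT replicate 2, those of Tgfb2 and Tgfb3 also without DKO replicate 1 and that of Tgfb3 also without DKO replicate 3, at adjusted p of up to 0.0669, 0.0657 and 0.0826 for Bmp4, Tgfb2 and Tgfb3. Angpt1, the ligand of TEK that blood progenitors also make, fell from 2739 ± 370.3 to 1288 ± 362 normalized counts (SD over 4 libraries each; log2 fold change -1.09, edgeR adjusted p = 0.00782), and without DKO replicate 1 it was no longer beyond the fold threshold. Kitl, the ligand of KIT, had a log2 DKO to WT ratio of -0.22 (edgeR adjusted p = 0.633), and that of Tgfb1 was -0.01 (edgeR adjusted p = 0.964).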

How the data were processed

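RNAseq of S0 cells sorted at E12.5 was analysed for 4 WT and 4 DKO libraries. The authors trimmed reads with fastp 0.21.0, mapped them to mm10 with HISAT2 2.2.1, discarded alignments of low mapping quality and, with StringTie 1.3.3b and its prepDE script, deposited whole-number counts per gene, neither normalized nor pooled. The strand setting is not given in the sources used here, so counts of overlapping genes are uncertain. Groups and replicate numbers came from the sample labels. Of 52636 identifiers, 52489 matched a symbol of the GENCODE annotation of GRCm38. Genes were filtered with filterByExpr, scaled by TMM and compared with the robust quasi-likelihood test of edgeR 4.0.16 (R 4.3.3, limma 3.58.1), with Benjamini-Hochberg adjustment over 17378 genes and no covariate. A gene was called at an adjusted p under 0.05 with a log2 fold change beyond 1. TPM was computed from counts and exon length, and correlations from log2 CPM with a prior of 0.5, centred within genotype. At these depths the spread between libraries, and not counting error, limited precision, and libraries of a genotype differed by at least 18.3 chi-square units per gene, so none was counted as a copy. The steps were tested on simulated counts. The members and all lists were chosen with earlier results of these data known. The genes named were the 8 members, the partner genes with an adjusted p under 0.05 and the receptors of the member ligands, the 10 genes nearest to the mean of the members, and neighbours on the chromosome. Markers were named as examples. Ncl, Igf2, Igfbp4, Pdgfa, Tgfb1, Kitl and Gpc5 were added after their values were seen. Alternatives were DESeq2 1.42.0, library totals without TMM, 2 other low-count filters, a replicate block, each library left out, and DKO replicate 3 alone. Protein sequences were not used here.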

Additional observations from a re-analysis of the deposited data

Results flagged for a closer look

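In groups of 4 libraries, the highest or lowest library of each of the 8 genes was compared with the rest by the ratio of its gap to the whole range, over 16 groups. Igfbp5 in DKO exceeded the 95% critical value for 4 libraries, at 0.844, because DKO replicate 1 had 10005 normalized counts and the other 3 DKO libraries had 2364 to 3558. Chance alone gives about 1 such group in 20. The same library was the highest DKO library for Mdk, Ptn, Igfbp2, Pdgfra, Gpc3 and Cxcl12, and no cause was tested.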

How the results depend on the processing

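Mdk, Ptn, Igfbp5, Igfbp2 and Pdgfra kept their direction under all 14 alternatives, and the median log2 fold change of the 8 genes stayed between 2.12 and 3.12, against 2.84. The number of members called higher was 5 in every fit but DKO replicate 3 alone, a single DKO library assumed to vary like the other libraries, where it was 3 (Mdk, Igfbp2 and Pdgfra) with 1 (Cxcl12) called lower. The sign of Gpc3 and Cxcl12 depended on the libraries used. Over all genes, 1076 were called higher and 423 lower. DESeq2 called 1653 higher, and DKO replicate 3 alone gave 590 higher and 1143 lower. Leaving out 1 library gave 566 to 1148 higher and 243 to 521 lower, the low counts being without WT replicate 1 (566 and 258), 2 (650 and 260) or 4 (633 and 243). Of the partner genes, 21 were called higher and 1 lower. DKO replicate 3 alone gave 8 and 11, DESeq2 gave 4 lower, library totals without TMM gave 2 lower, and leaving out 1 library gave 11 to 23 higher, with 11, 13 and 12 without WT replicates 1, 2 and 4, and 0 to 2 lower, with 0 without DKO replicate 1, which took Angpt1 from beyond the fold threshold, and 2 without DKO replicate 2. The mean correlation of 0.569 over 28 pairs ran from 0.294 without DKO replicate 1 to 0.690 without DKO replicate 3. Same-numbered libraries did not deviate together over all tested genes (correlations of -0.07, 0.04, -0.01 and -0.01). A weak link, or a link in few genes, could give such values, so whether the numbers pair libraries is not settled. With the replicate block 613 genes were called higher, 343 lower, and 5 members and 15 partner genes higher. Where a count moved, the cause was not tested. The spread between libraries limits the precision of the folds, most for Igfbp5. The fits of members called higher, of the 10 pairs and of Gpc3 with Cxcl12 were added after the data were seen.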
